A study of Mus musculus with 16 samples.

Results

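Kcnb2, Kcnc1, Kcnc2 and Kcnc4, which encode pore subunits of Kv2 and Kv3 delayed rectifier potassium channels, were measured in sorted neurons of the basolateral amygdala (BLA) and the gustatory cortex (GC) of mice. They were found by gene name in the deposited expression tables, where each name stood on 1 entry, and are 4 of 31020 gene names on 31469 entries. The neurons came from male mice of the YFP-H line, B6.Cg-Tg(Thy1-YFP)HJrs/J, aged 60 to 80 postnatal days, and were sorted by hand for YFP fluorescence. All mice carried the transgene, in which the Thy1 promoter drives YFP and labels a subset of projection neurons, in the BLA mainly those of its anterior portion and in the GC those of layer 5. Mice with conditioned taste aversion (CTA) drank 0.5% saccharin for 30 min and then received 0.15 M lithium chloride intraperitoneally, which causes malaise. Taste control mice drank saccharin and received saline in place of lithium chloride. Cells were taken 4 hr after training, with 4 CTA and 4 taste control libraries per region and 16 libraries in all. The labels do not say whether a BLA and a GC library came from the same animal, and p-values measure the spread between these libraries.

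Delayed rectifiers open when the membrane depolarizes and carry the outward potassium current that ends an action potential. Kv2 channels gate slowly, cluster on the soma and proximal dendrites, and shape repetitive firing in many central neurons. Kv3 channels open at strongly depolarized potentials and close fast, which keeps spikes narrow, and they are best known from fast-spiking, parvalbumin-positive interneurons. Kcnb2 encodes a Kv2 subunit, Kcnc1 and Kcnc2 encode Kv3 subunits of the delayed rectifier type that can assemble with each other, and Kcnc4 encodes a Kv3 subunit that inactivates rapidly.

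In the mouse genome (GRCm38, GENCODE annotation) the genes lie on different chromosomes. Kcnb2 spans chr1:15287254-15723750 on the plus strand, Kcnc1 chr7:46396497-46438704 on the plus strand, Kcnc2 chr10:112271121-112467024 on the plus strand and Kcnc4 chr3:107438303-107459552 on the minus strand. The values are per gene and do not separate transcripts. No exon of the 4 genes shares bases with another annotated gene. RefSeq promoter windows were found for 3 of the 4 genes, Kcnc1, Kcnc2 and Kcnc4, and are shown because the differences between the regions were of unequal size in these Kv3 genes. Each line gives the 250 bases before a RefSeq transcription start (GRCm38.p6), 5′ to 3′ on the strand of the gene. Capitals mark matches, on either strand, to 4 motifs, a CRE core (TGACG), a GC box (GGGCGG), an AP-1 site (TGANTCA) and an E-box (CAGNTG), and no match overlapped another.
Kcnc1, chr7:46396218-46396467: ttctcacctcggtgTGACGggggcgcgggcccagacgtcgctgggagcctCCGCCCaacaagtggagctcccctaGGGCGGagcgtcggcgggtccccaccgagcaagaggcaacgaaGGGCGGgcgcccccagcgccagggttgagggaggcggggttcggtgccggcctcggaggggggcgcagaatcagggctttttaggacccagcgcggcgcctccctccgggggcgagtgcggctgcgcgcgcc
Kcnc2, chr10:112270871-112271120: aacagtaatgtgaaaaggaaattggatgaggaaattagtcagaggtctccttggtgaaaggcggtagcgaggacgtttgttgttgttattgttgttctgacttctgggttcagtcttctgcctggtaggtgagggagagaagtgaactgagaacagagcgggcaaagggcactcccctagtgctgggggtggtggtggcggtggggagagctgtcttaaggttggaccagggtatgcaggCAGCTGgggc
Kcnc4, chr3:107458899-107459148: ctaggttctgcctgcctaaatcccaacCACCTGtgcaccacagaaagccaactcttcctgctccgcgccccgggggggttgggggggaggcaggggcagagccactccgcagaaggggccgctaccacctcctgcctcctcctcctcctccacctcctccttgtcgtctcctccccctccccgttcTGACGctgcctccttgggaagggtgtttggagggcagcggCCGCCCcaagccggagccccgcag
The Kcnc1 window held 1 CRE core and 3 GC boxes, the Kcnc2 window 1 E-box, and the Kcnc4 window 1 CRE core, 1 GC box and 1 E-box. None of these windows held the AP-1 letters, the motif that FOS and JUN dimers bind. Of 32851 windows of the same length, 17.8% held the CRE core, 32.7% the GC box, 6.75% the AP-1 site and 44.8% the E-box. G and C made up 74.4% of the Kcnc1 window, 52.8% of the Kcnc2 window and 68.0% of the Kcnc4 window, and the median over all windows was 52.4%. The RefSeq start of Kcnc4, at 107458898 on the minus strand, lies inside the gene as GENCODE places it, and so does the whole window shown. The RefSeq table holds further start sites for Kcnc2, and the one shown is where the gene starts in GENCODE. The window of the start at 112270017 held 1 GC box and 2 E-boxes, and those of the remaining starts 1 E-box each.

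Expression was measured by RNA sequencing and is given as TPM, transcript abundance corrected for transcript length and scaled to 1 total in every library, so that levels of different genes can be compared. Depth per library is unknown, so libraries of a group give the only measure of precision. BLA libraries had 15850 to 17202 entries above 0 and GC libraries 17982 to 18340. Thy1, whose promoter drives the transgene, ranged over 64127 to 89098 TPM in BLA libraries and 26938 to 53946 TPM in GC libraries. Slc17a7, the vesicular glutamate transporter of these projection neurons, was at 644 to 802 TPM in the BLA and 742 to 961 TPM in the GC. Rspo2, a marker of the anterior BLA, averaged 79.6 ± 32.9 TPM in the BLA and 18.9 ± 6.48 TPM in the GC (SD, n = 8 each). Fezf2, a marker of layer 5, averaged 91.1 ± 39.2 TPM in the BLA and 148 ± 23.8 TPM in the GC. Etv1, also listed for layer 5, went the other way, at 333 ± 58.5 TPM in the BLA and 57.7 ± 15.4 TPM in the GC. Crym averaged 137 ± 29.8 and 123 ± 28.9 TPM, and Bcl11b 37.0 ± 9.78 and 42.6 ± 6.37 TPM, in the same order (SD, n = 8 each). The summed level of the 4 layer 5 markers was 554.5 to 666.52 TPM in the BLA and 289.22 to 430.0 TPM in the GC.

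All 4 genes were detected in every library. Kcnc2 was below 5 TPM in every BLA library and above 16 TPM in every GC library, Kcnb2 and Kcnc1 were lower in the BLA than in the GC by smaller factors, and Kcnc4 overlapped between the regions. None of the 4 differed between CTA and taste control beyond the spread between libraries in either region. In the following, a difference is BLA minus GC or CTA minus taste control on the scale of log2(TPM + 1), tested with limma over all genes whose mean reached 1 TPM, and a gene was called at an adjusted p (Benjamini-Hochberg) under 0.05. Region, deposited table and any batch of sorting or sequencing cannot be told apart, since each region stood in a table of its own. In pooled sorted cells, fewer cells expressing a gene and less RNA per cell cannot be told apart either.

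**Figure D1:**
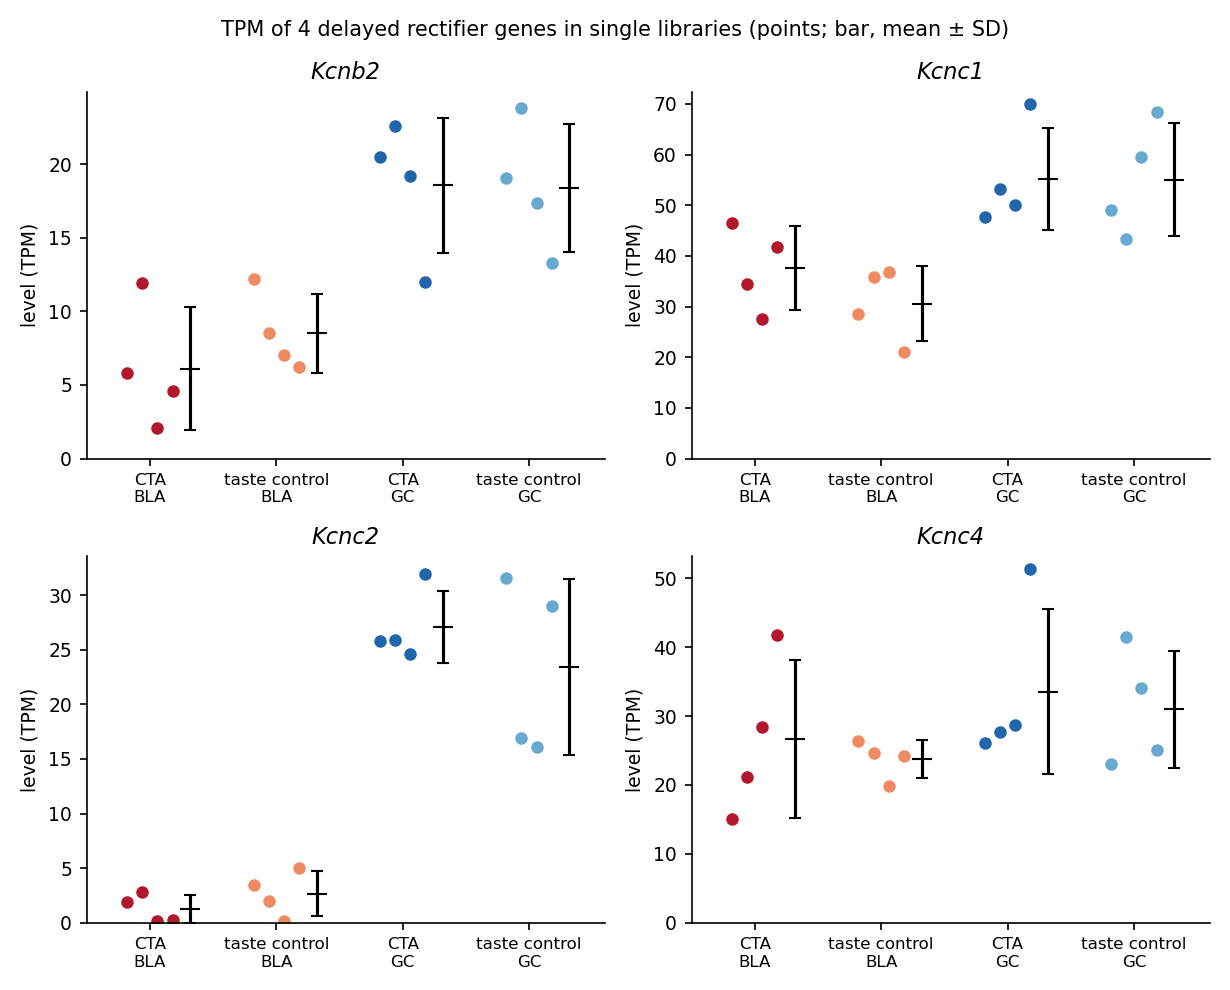
TPM of Kcnb2, Kcnc1, Kcnc2 and Kcnc4 (vertical axes) in CTA and taste control libraries of the BLA (red, orange) and the GC (dark and light blue), with 1 point per library and the mean ± SD of each group (n = 4) beside the points. Kcnc2 stays at or below 4.98 TPM in the BLA and at or above 16.08 TPM in the GC, while the Kcnc4 points of both regions overlap.

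Kcnc2 showed the widest gap between the regions. It was at 1.92, 2.79, 0.15 and 0.24 TPM in the CTA libraries of the BLA, against 25.78, 25.86, 24.62 and 31.95 TPM in the CTA libraries of the GC. In taste control mice it was at 3.46, 2.02, 0.15 and 4.98 TPM in the BLA, against 31.60, 16.94, 16.08 and 29.04 TPM in the GC. Every BLA library was below every GC library, and 3 BLA libraries, 2 of them CTA and 1 taste control, were below 0.3 TPM. Averages were 1.96 ± 1.76 TPM in the BLA and 25.2 ± 6.02 TPM in the GC (SD, n = 8 each), a level 12.8-fold higher in the GC. Among all entries of the tables the BLA mean stood at percentile 58.1 and the GC mean at percentile 80.0. The difference was -3.36 ± 0.36 (SE, limma adjusted p = 2.13e-06), and of the genes tested 0.540% had a lower one. It was called after CTA (-3.81 ± 0.48, limma adjusted p = 0.000706) and in taste control (-2.92 ± 0.54, limma adjusted p = 0.00649) taken alone. With BLA levels this low the fitted value depends on the pseudocount, at -4.34 with 0.1 TPM and -2.13 with 5 TPM in place of 1 TPM.

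Kcnb2 was also lower in the BLA. Its levels were 5.84, 11.92, 2.08 and 4.59 TPM in the CTA libraries of the BLA, against 20.52, 22.59, 19.17 and 12.01 TPM in the CTA libraries of the GC. In taste control mice they were 12.21, 8.54, 7 and 6.24 TPM in the BLA, against 19.07, 23.81, 17.37 and 13.29 TPM in the GC. The regions did not overlap within either training, and over both trainings they met only where the highest BLA library, at 12.21 TPM, passed the lowest GC library, at 12.01 TPM. Averages were 7.30 ± 3.48 TPM in the BLA and 18.5 ± 4.15 TPM in the GC (SD, n = 8 each), 2.53-fold higher in the GC. The difference over both trainings was called (-1.33 ± 0.29 SE, limma adjusted p = 0.00280). Within a single training, with 4 libraries a side, it was -1.61 ± 0.47 after CTA and -1.04 ± 0.36 in taste control and was not called (limma adjusted p = 0.0648 and 0.105). With single libraries left out, the value after CTA ran from -1.96 to -1.27 and was called in 1 of 8 fits (limma adjusted p up to 0.182). That fit, at -1.96 (limma adjusted p = 0.0234), was without CTA library 2 of the BLA, in which Kcnb2 was highest of its group.

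Kcnc1 was the most abundant of the 4 in both regions and differed less between them. It was at 46.54, 34.50, 27.62 and 41.85 TPM in the CTA libraries of the BLA, against 47.61, 53.14, 50.08 and 69.92 TPM in the CTA libraries of the GC. In taste control mice it was at 28.46, 35.92, 36.87 and 21.11 TPM in the BLA, against 49.10, 43.29, 59.60 and 68.32 TPM in the GC. The regions were apart within each training, in the CTA libraries only by 46.54 against 47.61 TPM, and overlapped over both trainings. Averages were 34.1 ± 8.18 TPM in the BLA and 55.1 ± 9.82 TPM in the GC (SD, n = 8 each), 1.62-fold higher in the GC. The difference over both trainings was called (-0.69 ± 0.18 SE, limma adjusted p = 0.00878), and within a training it was not (-0.55 after CTA, limma adjusted p = 0.242, and -0.84 in taste control, limma adjusted p = 0.0802). The call over both trainings was lost after a median-ratio rescaling of the libraries (-0.47 ± 0.18 SE, limma adjusted p = 0.0781).

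Kcnc4 was not called between the regions. Its levels were 15.12, 21.19, 28.37 and 41.78 TPM in the CTA libraries of the BLA, against 26.16, 27.74, 28.77 and 51.38 TPM in the CTA libraries of the GC. In taste control mice they were 26.37, 24.64, 19.89 and 24.24 TPM in the BLA, against 23.11, 41.54, 34.07 and 25.10 TPM in the GC. The regions overlapped within each training. Averages were 25.2 ± 7.87 TPM in the BLA and 32.2 ± 9.71 TPM in the GC (SD, n = 8 each). The difference was -0.35 ± 0.22 (SE, limma adjusted p = 0.314) with a 95% interval from -0.82 to 0.12, so that a level in the BLA lower by the amount seen for Kcnc1 lies within the interval.

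Over both trainings, 3 of the 4 genes were called lower in the BLA, where 15.2% of the 15191 genes tested were called lower and 4.12% higher. Within 1 training Kcnc2 alone was called, after CTA, where 4.88% of genes were called lower and 1.71% higher, as in taste control, where 6.15% were called lower and 1.83% higher. Every BLA library was below every GC library for 3 of the 4 genes within each training, as for 11.0% of genes tested after CTA and 12.6% in taste control, and for Kcnc2 alone over both trainings, as for 4.59% of genes. An exact permutation test of mean TPM, two-sided and unadjusted over 20 such tests, gave p = 0.0286 for Kcnb2, Kcnc1 and Kcnc2 within each training, the smallest value that 4 against 4 libraries allow. Over both trainings, with labels exchanged within training, it gave p = 0.000408 for each of the 3, again the smallest possible, and exact p = 0.152 for Kcnc4.

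The median difference of all genes tested was -0.23, a shift towards the GC that the values of single genes contain. Median-ratio rescaling moved the median to -0.04 and changed the calls over all genes to 1139 higher and 1422 lower in the BLA, against 626 higher and 2307 lower without it. Quantile normalization moved the median to 0.01, with 977 genes called higher and 1406 lower. After these rescalings the difference was -3.20 and -2.99 for Kcnc2, -1.12 and -0.99 for Kcnb2, -0.47 and -0.56 for Kcnc1, and -0.13 and -0.17 for Kcnc4. Kcnc2 and Kcnb2 were called after both rescalings, Kcnc1 after quantile normalization alone (limma adjusted p = 0.0341), and Kcnc4 after neither.

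**Figure D2:**
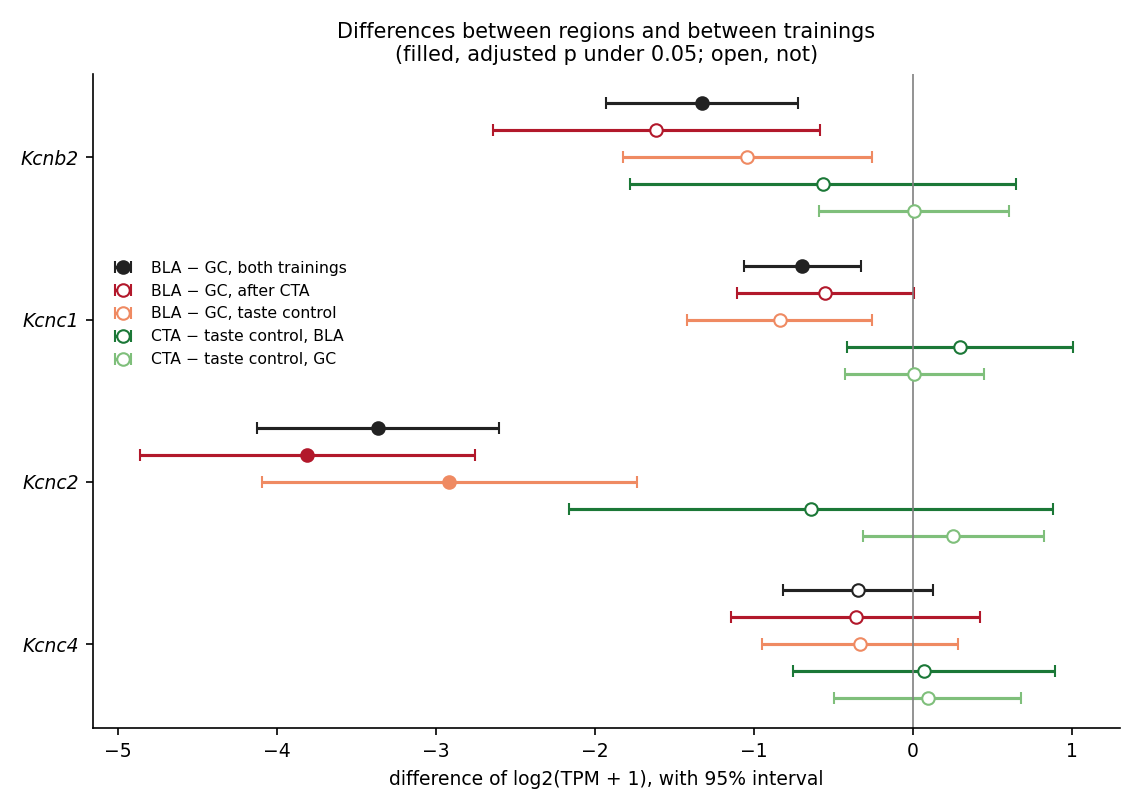
Differences of log2(TPM + 1) with 95% intervals (horizontal axis) for Kcnb2, Kcnc1, Kcnc2 and Kcnc4 (vertical axis) between regions and between trainings, with filled points for an adjusted p under 0.05. The 3 region values of Kcnc2, from -3.81 to -2.92, are filled, and all intervals for training cross 0.

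The question of the training comparison was whether these genes differed 4 hr after CTA. In the BLA, Kcnb2 averaged 6.11 ± 4.18 TPM in CTA libraries, against 8.5 ± 2.65 TPM in taste control libraries, and Kcnc2 averaged 1.28 ± 1.30 TPM in CTA libraries, against 2.65 ± 2.06 TPM in taste control libraries (SD, n = 4 each). Kcnc1 averaged 37.6 ± 8.31 TPM in CTA libraries, against 30.6 ± 7.35 TPM in taste control libraries, and Kcnc4 averaged 26.6 ± 11.5 TPM in CTA libraries, against 23.8 ± 2.76 TPM in taste control libraries (SD, n = 4 each). The groups overlapped for each gene. The differences were -0.57 for Kcnb2 (95% interval -1.78 to 0.65), 0.30 for Kcnc1 (-0.41 to 1.01), -0.64 for Kcnc2 (-2.16 to 0.88) and 0.07 for Kcnc4 (-0.75 to 0.89). None was called (limma adjusted p = 0.999 for each), and exact permutation p was 0.343, 0.286, 0.286 and 0.743 in the same order of genes. Of 14611 genes tested in the BLA 0% were called by limma, 568 had an unadjusted p under 0.05, and 10 passed thresholds after those of the study, as applied here (2-fold, unadjusted p under 0.01, a mean of at least 30 TPM over the libraries compared). Each interval holds values as large in size as the region difference of Kcnc1, -0.69.

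In the GC the CTA and taste control means lay close together. Kcnb2 averaged 18.6 ± 4.60 TPM in CTA libraries, against 18.4 ± 4.35 TPM in taste control libraries, and Kcnc1 averaged 55.2 ± 10.1 TPM in CTA libraries, against 55.1 ± 11.1 TPM in taste control libraries (SD, n = 4 each). Kcnc2 averaged 27.1 ± 3.31 TPM in CTA libraries, against 23.4 ± 8.05 TPM in taste control libraries, and Kcnc4 averaged 33.5 ± 12 TPM in CTA libraries, against 31 ± 8.52 TPM in taste control libraries (SD, n = 4 each). The differences were 0.01 for Kcnb2 (95% interval -0.59 to 0.60), 0.01 for Kcnc1 (-0.43 to 0.44), 0.25 for Kcnc2 (-0.32 to 0.82) and 0.09 for Kcnc4 (-0.49 to 0.68). None was called (limma adjusted p = 0.9996 for each), and exact permutation p was 0.914, 0.971, 0.429 and 0.714. Of 15278 genes tested in the GC 0% were called by limma, with 573 at an unadjusted p under 0.05 and 1 past the same thresholds. In CTA library 4 of the GC, Kcnc1 at 69.92, Kcnc2 at 31.95 and Kcnc4 at 51.38 TPM were each the highest of all 16 libraries, while Kcnb2 at 12.01 TPM was the lowest of the 8 GC libraries.

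The term for region by training asked whether the training difference was itself unequal between BLA and GC. It was -0.57 for Kcnb2, 0.29 for Kcnc1, -0.89 for Kcnc2 and -0.02 for Kcnc4, and none was called (limma adjusted p = 0.9995 for each). Of 15191 genes tested 0% were called by limma for this term, with 601 at an unadjusted p under 0.05. Ordered by their means, the 4 groups stood the same way round between regions for every gene, both GC groups above both BLA groups. The neighbours CTA and taste control within a region did not differ beyond their spread for any of the 4, and for Kcnc4 neither did the regions.

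The balance of the Kv3 subunits was unlike in BLA and GC. Kcnc2 made up 3.02, 4.77, 0.267 and 0.286% of the summed TPM of Kcnc1, Kcnc2 and Kcnc4 in the CTA libraries of the BLA, against 25.9, 24.2, 23.8 and 20.8% in the CTA libraries of the GC. In taste control its share was 5.94, 3.23, 0.264 and 9.89% in the BLA, against 30.4, 16.6, 14.7 and 23.7% in the GC. The highest share in the BLA was below the lowest in the GC. The sum of the 3 genes averaged 61.3 ± 10 TPM in the BLA and 113 ± 17.9 TPM in the GC (SD, n = 8 each), and Kcnc1 made up 55.5 ± 10.1% of it in the BLA and 48.9 ± 4.35% in the GC. Kcnc4 made up 41.0 ± 9.23% in the BLA and 28.5 ± 6.53% in the GC. A share falls when another gene of the sum rises, so these values restate the levels above and were not tested.

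**Figure D3:**
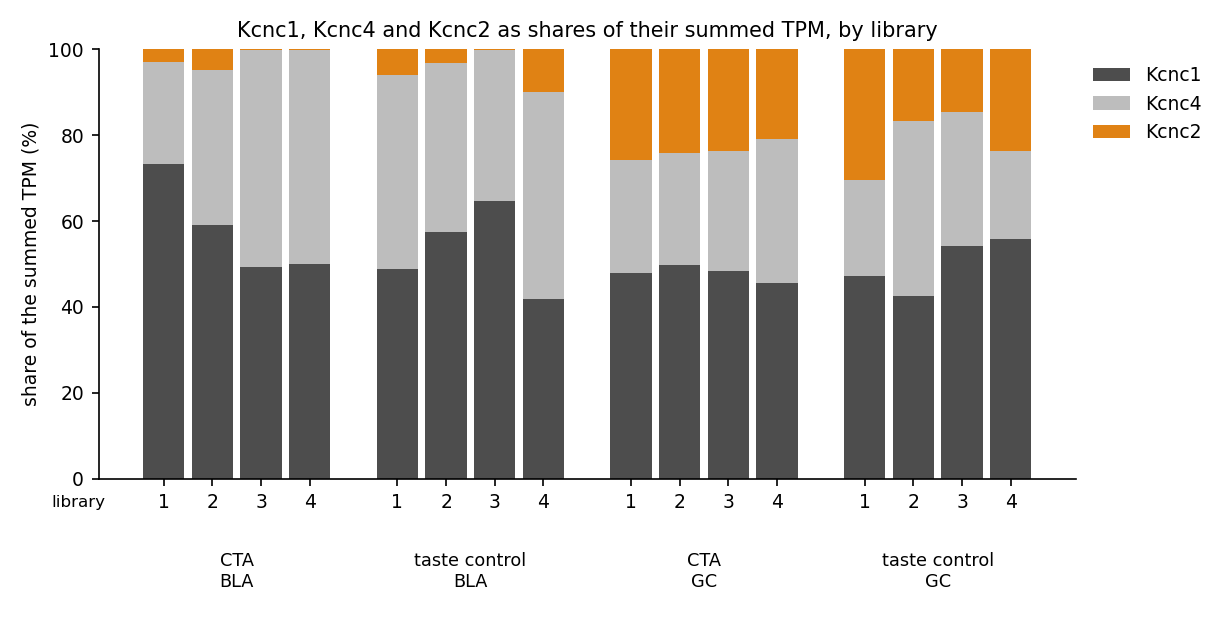
Shares (%) of the summed TPM of Kcnc1 (dark grey), Kcnc4 (light grey) and Kcnc2 (orange) in each of the 16 libraries, grouped by region and training. The orange share is at most 9.89% in the BLA and at least 14.7% in the GC.

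The order of the 4 genes within a library was more uniform in the BLA. Kcnc2 was the lowest of the 4 in 8 of 8 BLA libraries and Kcnb2 the second lowest. Kcnc1 was above Kcnc4 in 6 of them and below it in CTA library 3 and taste control library 4, so that Kcnc1 and Kcnc4 were not set apart in the BLA. In the GC Kcnc1 was the highest in 8 of 8 libraries, and Kcnb2 was the lowest in 6 and Kcnc2 in 2, both of them taste control. Between libraries of 1 region Kcnc2 varied most in the BLA, with a coefficient of variation of 89.4% in the BLA, against 23.9% in the GC, followed by Kcnb2 at 47.7% in the BLA and 22.4% in the GC. Kcnc1 had 24% in the BLA and 17.8% in the GC, and Kcnc4 31.2% in the BLA and 30.1% in the GC.

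Kcnc genes are abundant in parvalbumin interneurons, and the markers of such cells were examined beside Kcnc2. Pvalb, which encodes parvalbumin, was listed at 0 in all 8 BLA libraries and was at 2.05 to 81.02 TPM in the GC. Gad1, which encodes an enzyme of GABA synthesis, averaged 2.34 ± 3.58 TPM in the BLA and 5.13 ± 5.07 TPM in the GC. Gad2, which encodes the other such enzyme, went the other way, at 20.4 ± 12.3 TPM in the BLA and 7.64 ± 6.77 TPM in the GC. Slc32a1, the vesicular GABA transporter, averaged 3.15 ± 3.56 TPM in the BLA and 1.33 ± 1.77 TPM in the GC. Sst, a neuropeptide of other interneurons, averaged 20.7 ± 32.7 TPM in the BLA and 4.61 ± 11.0 TPM in the GC (SD, n = 8 each). Over both trainings Gad1, Gad2, Slc32a1 and Sst were not called between the regions (limma adjusted p = 0.325, 0.119, 0.473 and 0.313). The summed level of 11 interneuron markers was 7.28 to 136.74 TPM in the BLA and 5.42 to 110.99 TPM in the GC. Kcnc2 was at 25.86 TPM in the GC library with the lowest sum, CTA library 2, and at 31.95 TPM in the GC library with the lowest Pvalb, CTA library 4, and was at 2.02 TPM in the BLA library with the highest sum, taste control library 2. Pvalb was itself lower in the BLA (-4.41 ± 0.50 SE, limma adjusted p = 4.30e-06), and the BLA library with the highest sum held mostly Sst, at 94.49 TPM. The part of interneuron RNA in the Kcnc2 difference was not tested.

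**Figure D4:**
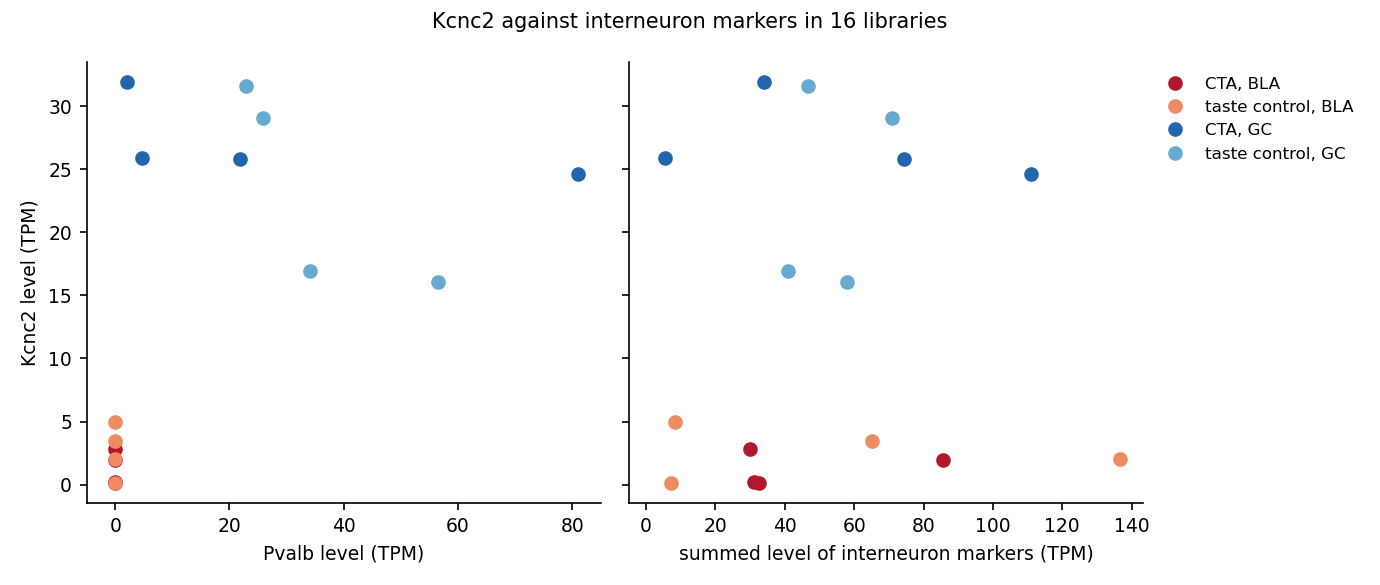
Kcnc2 (TPM, vertical axes) against Pvalb (TPM, left) and against the summed level of 11 interneuron markers (TPM, right) in the 16 libraries, coloured by group. The GC libraries lie between 16.08 and 31.95 TPM of Kcnc2 over the whole range of both markers, and the BLA libraries at or below 4.98 TPM.

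Marker sums of some other cell types moved with region. The summed level of 7 markers of central amygdala and striatal neurons was 19.72 to 57.89 TPM in the BLA and 63.49 to 135.05 TPM in the GC, that of 5 astrocyte markers 1.56 to 8.97 TPM in the BLA and 11.04 to 51.62 TPM in the GC, and that of 6 oligodendrocyte markers 14.70 to 121.81 TPM in the BLA and 103.06 to 376.91 TPM in the GC. Defining markers were low, with Prkcd at most 4.36 TPM, Gfap at most 12.95 TPM, Mog at most 7.06 TPM, Pdgfra at most 3.81 TPM, Cx3cr1 at most 5.69 TPM and Cldn5 at most 2.49 TPM in any library. Mog was listed at 0 in 3 BLA and 2 GC libraries and Gfap in 3 BLA libraries. The part of these cells, and of the larger number of entries above 0 in the GC, in the differences of the 4 genes was not tested.

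Kv2 channels assemble with electrically silent Kv subunits, which form no channel alone. Of 10 such genes 8 were tested, 1 was called higher and 2 lower in the BLA over both trainings, where 4.12% of all genes tested were called higher and 15.2% lower. Their median difference was -0.22, against -0.23 over all genes and 0.05 after quantile normalization. Kcng2 averaged 1.14 ± 1.5 TPM in the BLA and 11.6 ± 2.78 TPM in the GC (-2.80 ± 0.34 SE, limma adjusted p = 8.87e-06), and Kcns3 was lower too (-1.47 ± 0.33 SE, limma adjusted p = 0.00334). Kcng1 was higher, at 62.2 ± 18.2 TPM in the BLA and 30.8 ± 4.38 TPM in the GC (0.95 ± 0.18 SE, limma adjusted p = 0.00117). The most abundant silent subunits, Kcnv1 at 69.2 ± 30.3 TPM in the BLA and 108 ± 28.4 TPM in the GC and Kcnf1 at 72.7 ± 19.2 TPM in the BLA and 84.8 ± 9.94 TPM in the GC, were not called. Within 1 training Kcng2 was called after CTA and in taste control, Kcng1 after CTA and Kcns3 in taste control, Kcns3 being under the minimum level after CTA. In taste control the calls of Kcng2 and Kcns3 held in few alternatives, 4 of 17 and 5 of 16. The term for region by training was called for none of them.

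Amigo1, an auxiliary subunit that travels with Kv2 channels, was lower in the BLA over both trainings, at 29.6 ± 7.99 TPM in the BLA and 51.5 ± 11.2 TPM in the GC (-0.79 ± 0.19 SE, limma adjusted p = 0.00520). Within 1 training Amigo1 was not called (-0.74 after CTA, limma adjusted p = 0.152, and -0.85 in taste control, limma adjusted p = 0.0783). Vapa and Vapb, proteins of the endoplasmic reticulum to which Kv2 channels tether, were not called, with Vapa, the most abundant of the 3, at 204 ± 67 TPM in the BLA and 150 ± 26.7 TPM in the GC. Vapa was called higher in the BLA after median-ratio rescaling (0.62 ± 0.18 SE, limma adjusted p = 0.0205). Kcne genes encode small accessory subunits, and of 5 only Kcne3, at 2.72 ± 4.65 TPM in the BLA and 1.54 ± 2.42 TPM in the GC, reached the minimum level. It was not called, and Kcne2 averaged 0.151 ± 0.428 TPM in the BLA and 1.04 ± 1.57 TPM in the GC.

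Among 23 other pore subunits of voltage-gated potassium channels 18 were tested. Of these 8 were called lower and 1 higher in the BLA, where 15.2% of all genes tested were called lower and 4.12% higher. After either rescaling 6 of the 18 were called lower and 1 higher. Of all 15191 genes tested, 1422 were called lower and 1139 higher after median-ratio rescaling. After quantile normalization 1406 were called lower and 977 higher. The median difference of the 18 was -0.77, against -0.23 over all genes. It was -0.62 after median-ratio rescaling, against -0.04 over all genes, and -0.40 after quantile normalization, against 0.01 over all genes. Kcna1 and Kcna2, low-threshold Kv1 subunits of axons, averaged 60.4 ± 15.0 and 45.4 ± 8.26 TPM in the BLA, against 129 ± 21.9 and 132 ± 27.4 TPM in the GC (-1.11 ± 0.15 and -1.51 ± 0.16 SE, limma adjusted p = 3.20e-05 and 2.04e-06). Kcnh1 and Kcnh7, of the ether-a-go-go family, were lower by -2.09 ± 0.31 and -1.22 ± 0.20 (SE, limma adjusted p = 8.86e-05 and 0.000235). The most abundant gene of the list, Kcnma1, the BK channel opened by calcium and voltage, was not called and averaged 133 ± 23.6 TPM in the BLA and 145 ± 12.7 TPM in the GC (SD, n = 8 each). After CTA 5 of 18 were called lower, with Kcna2, Kcnq5, Kcnh1 and Kcna1 at the smallest p, and Kcnd3 higher, where 4.88% of all genes were called lower and 1.71% higher. After median-ratio rescaling 3 and after quantile normalization 4 of the 18 were called lower. Of all 15077 genes tested 501 and 483 were called lower, in the same order. In taste control 5 of 19 were called lower, with Kcna2, Kcna1, Kcnh1 and Kcnh7 at the smallest p, where 6.15% of all genes were. Between CTA and taste control 0 genes of any of these lists were called in the BLA or the GC.

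**Figure D5:**
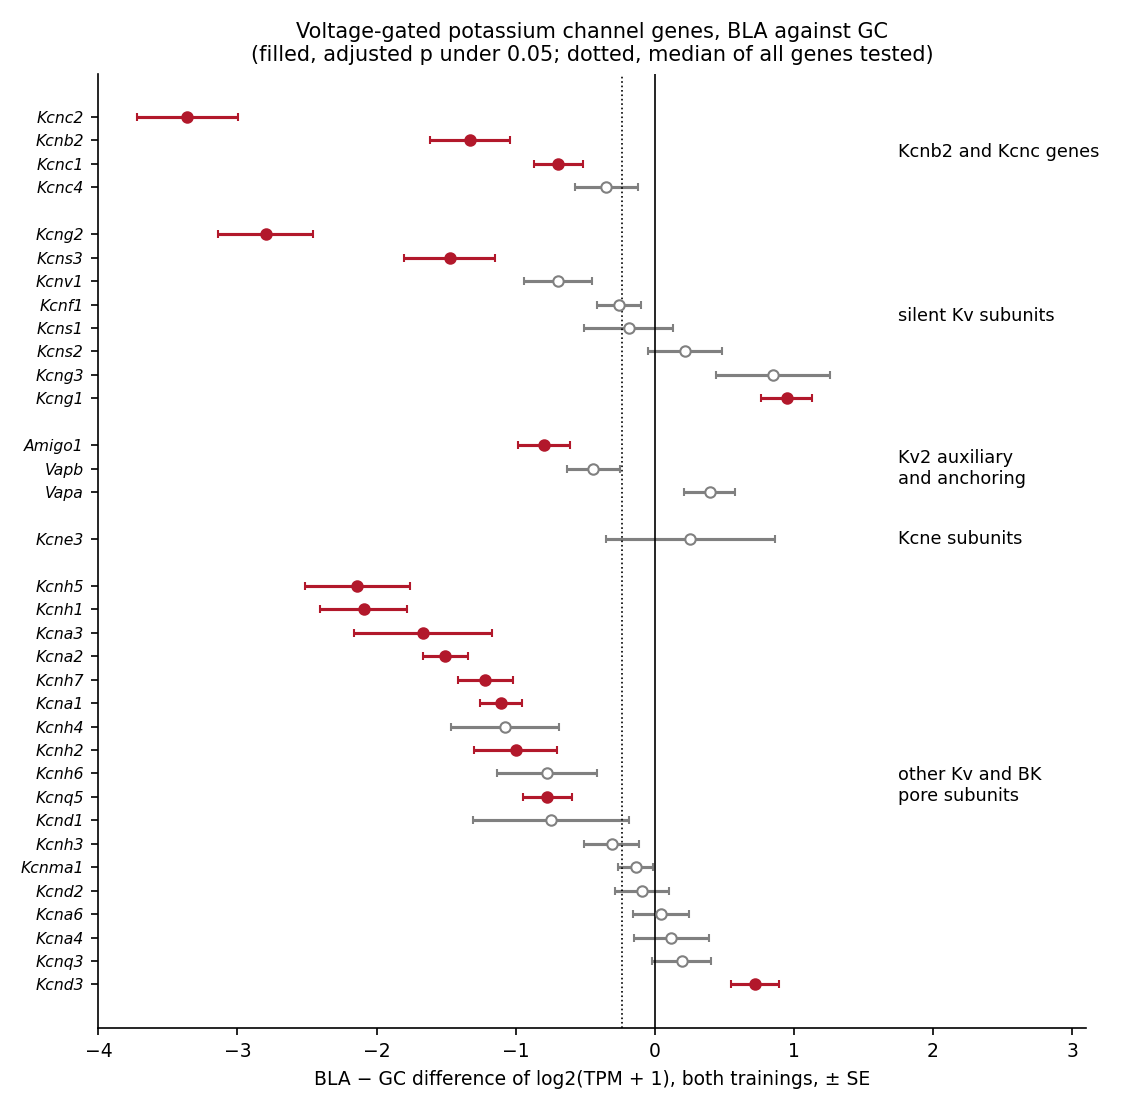
Difference of log2(TPM + 1) between BLA and GC over both trainings (horizontal axis, ± SE) for every tested gene of the lists (vertical axis), with filled points for an adjusted p under 0.05 and a dotted line at the median of all genes tested, -0.23. Kcnc2 at -3.36 and Kcng2 at -2.80 lie farthest to the left, and Kcng1 at 0.95 and Kcnd3 at 0.72, named here after its value was seen, are the filled points on the right.

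Genes whose log2(TPM + 1) ran most like each of the 4 were taken by Pearson r over the 16 libraries among 9486 entries with a mean of at least 10 TPM, as a description, since all points share region and library. Kcnc2 ran with Cbln1, a synaptic organizer of the cerebellin family (r = 0.97), which averaged 3.68 ± 2.31 TPM in the BLA and 24.4 ± 8.02 TPM in the GC, and with Gm2506 (r = 0.97), a name that stands on several entries, of which 2 held identical values, so that its level is uncertain. Kcnb2 ran with Rap1gap2, which inactivates the small GTPase Rap (r = 0.92), with Mkl2, a coactivator of serum response factor (r = 0.91), and with Ppp2r5a, a regulatory subunit of protein phosphatase 2A (r = 0.90). Kcnc1 ran with 1810026J23Rik (r = 0.91), with Ski, a repressor of SMAD signalling (r = 0.89), and with Prkar2a, a regulatory subunit of protein kinase A (r = 0.89). The genes nearest to Kcnc4 had a lower r over the 16 libraries, Fam69b (r = 0.82), Ptms (r = 0.80) and Bckdk (r = 0.80).

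After group means were taken off, r with Kcnc2 was 0.80 for Cbln1 and 0.74 for Gm2506, so that likeness rested partly on region. In the order above r was 0.79, 0.70 and 0.77 for the genes of Kcnb2, and 0.80, 0.65 and 0.66 for those of Kcnc1. With Kcnc4 it was 0.87 for Fam69b, 0.77 for Ptms and 0.78 for Bckdk, so these were not less alike within groups. Between the 4 genes themselves r over the 16 libraries was highest for Kcnb2 and Kcnc2 (0.85), and 0.39 within groups. The other pairs were at -0.29 to -0.04 within groups, with values from 0.19 to 0.66 over all libraries. The genes were picked for this likeness, so their own levels by region are not tested here.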

How the data were processed

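RNA of YFP+ neurons was sequenced in 16 libraries of the BLA and the GC. Per the labels and the study's methods, the authors prepared libraries with the NuGEN Ovation kit, mapped the single-end reads onto mm10 with TopHat (version not given in the sources used here) and derived expression per gene from uniquely mapped reads. The deposited TPM of single libraries entered all comparisons. Group means, fold-changes and p-values in the authors' own columns were not used, and no per-sample column was left out. TPM keeps no read counts, and the study's methods give only a usual number of reads. Depth and counting error of single libraries are therefore unknown.

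On the scale of log2(TPM + 1), genes whose mean over the compared libraries reached 1 TPM were tested with limma 3.58.1 (R 4.3.3; variance trend), with group means as terms and Benjamini-Hochberg adjustment over all genes tested. Single genes were also tested by exact permutation of mean TPM, over 70 arrangements within a training or region. The limma fit was tested on simulated data with 200 changed genes.

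The members and lists were chosen with earlier results of these data known. The text names the 4 members and the 3 entries most like each. From each list it names the called genes (at most 4 by p) and the 2 most abundant. Defining markers are named too, and the other listed layer 5 markers and Gad2 were added after their values were seen. Some other potassium channel genes are not reported here. Alternatives were pseudocounts of 0.1 and 5 TPM, a minimum mean of 0 or 5 TPM, median-ratio rescaling, quantile normalization, array quality weights, a fit without trend, a block for replicate number, each library left out, and thresholds after those of the study, as applied here (2-fold, unadjusted p under 0.01, a mean of at least 30 TPM over the libraries compared).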

Additional observations from a re-analysis of the deposited data

Results flagged for a closer look

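The 4 genes in the 4 groups gave 16 sets of 4 values to test, and 2 sets held a library far from the other 3. Chance gives about 1 in 20 for a single set, but the genes share their libraries, so the sets are not independent. Both of the far values were in CTA library 4 of the GC. Kcnc4 was at 51.38 TPM there, against 26.16 to 28.77 TPM in its group otherwise, and Kcnc2 was at 31.95 TPM, against 24.62 to 25.86 TPM. Without this library the difference between CTA and taste control in the GC turned to -0.13 for Kcnc4 and -0.11 for Kcnc1, and no value was called with or without it. The part of this library's other properties in these levels was not tested.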

How the results depend on the processing

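Over all alternatives, 450 recomputed values of the 4 genes kept their direction and side of the threshold, 19 turned their sign, 1 gained a call and 1 lost it. Among the limma fits, Kcnc2 was called in all alternatives of the 3 region comparisons, Kcnb2 over both trainings in all 25, and Kcnc1 over both trainings in 24 of 25 (lost after median-ratio rescaling, at -0.47, limma adjusted p = 0.0781). Kcnc4 was called in none. The mean of at least 5 TPM gives no value for Kcnc2 between trainings in the BLA.

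The values that turned their sign were small and uncalled. With array quality weights Kcnc1 between trainings in the GC was -0.023. With single libraries left out, the training value ran from -0.17 to 0.30 for Kcnc4 in the BLA, and in the GC from -0.13 to 0.19 for Kcnb2, -0.11 to 0.12 for Kcnc1 and -0.13 to 0.24 for Kcnc4, and the term for region by training from -0.27 to 0.20 for Kcnc4. Between the regions median-ratio rescaling turned Kcnma1 to 0.087 and Fam69b to 0.084, quantile normalization turned Fam69b to 0.061, and Kcne3 ran from -0.13 to 0.57 with libraries left out. Of the calls of other named genes within 1 training, those of Kcng2 and Kcns3 in taste control and of Kcna1, Kcnh1, Kcnq5 and Kcng1 after CTA were lost under some alternatives. Kcnv1 over both trainings gained a call in 3 of 16 fits without 1 library, with array quality weights and with a minimum mean of 5 TPM.

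By thresholds after those of the study, as applied here, 10 genes passed between trainings in the BLA, 1 in the GC, 353 between the regions over both trainings, 333 in taste control and 272 after CTA, and none of the 4 genes passed in any of these. Kcnb2 and Kcnc2 were under the minimum of 30 TPM in each comparison, and Kcnc1, over it, was less than 2-fold apart. Leaving out single libraries gave 0 to 1 calls between trainings in the GC, 677 to 1126 between the regions in taste control and 535 to 1113 after CTA, and each GC library left out lowered the region counts within a training by over 1.5 times. The 1 call in the GC came without CTA library 2. Equal replicate numbers did not pair the libraries (correlation of deviations from -0.105 to 0.132, own number best in at most 2 of 4). With the replicate number as a block 750 genes were called between the regions in taste control, 642 after CTA and 2458 over both trainings, against 1203, 994 and 2933 without it, and 0 between trainings. Depth of single libraries is unknown, which limits what can be said of Kcnc2 levels below 0.3 TPM.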
